A study of Mus musculus with 6 samples.

Results

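Solute carriers are membrane proteins that move amino acids, sugars, ions, metals, vitamins and metabolites across the plasma membrane or the membranes of organelles, and their genes are named Slc with a family number. Genes whose symbol begins with Slc and a digit were taken from the deposited expression table, with 1 row per symbol, the row of highest mean normalized count. This gave 179 of the 12019 symbols in the table. Of these, 174 encode carriers or their subunits. The other 5 carry the name without being carriers: the scaffold Slc9a3r1, Slc4a1ap, Slc7a6os, Slc2a4rg-ps and Slc22a13b-ps. RNA came from the cortex of C57BL/6 mouse embryos at embryonic day 12.5. There were 3 wild-type (WT) libraries, with the column names HC-1, HC-8 and HC-10. The other 3 libraries, named HM-5, HM-13 and HM-16, came from embryos in which Hdac1 and Hdac2 were both deleted conditionally (cKO). The promoter that drives the recombinase, the deleted exons, litters and whether each library is a separate embryo were not given in the sources used here. Any p-value therefore measures only how these libraries vary, which may be technical.

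Carriers work in sets. Some take up nutrients from blood and ventricular fluid, some fill or clear the fluid around cells of transmitters, and others feed mitochondria, the Golgi apparatus and lysosomes with the substrates of their enzymes. Many are secondary active: they use the sodium, proton or chloride gradients that ATP-driven pumps build. In the early cortex most cells are dividing radial glia, which rely on imported glucose and amino acids, while synaptic carriers are only beginning to be expressed in the first neurons. HDAC1 and HDAC2 remove acetyl groups from histones as parts of corepressor complexes.

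Recovered reads totalled 9712556 to 11922665 per library. Rn45s, a ribosomal RNA, took 29.7% of the reads of HM-13 and 0.506% to 2.48% of those of the rest. Hdac1 had 193 to 212 FPKM (fragments scaled to transcript length and depth, the deposited unit) in WT and 45.5 to 61.0 in cKO, and Hdac2 had 134 to 272 in WT and 37.6 to 61.7. The radial glia genes Emx2 and Fabp7 were present in every library, but both were called changed by the limma test described below. Emx2 had 142 to 167 FPKM in WT and 184 to 273 in cKO. It rose 1.52-fold (adjusted p = 0.0359), a call that held only without HM-13 among the fits that leave out a library. Fabp7 had 707 to 952 FPKM in WT and 234 to 429 in cKO. It fell to 37.8% of WT (adjusted p = 0.0064), in all 6 of these fits.

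More Slc genes were higher than lower in the cKO libraries. Of the 179 symbols, 131 reached 1 FPKM in at least 3 libraries and entered a limma test of log2(FPKM + 1). Benjamini-Hochberg adjustment ran over all 9346 symbols that passed this filter, and genes with an adjusted p under 0.05 are called changed. By this rule 29 Slc genes rose (22.1% of those tested), against 9.63% of all tested symbols. Another 4 fell (3.05%), against 8.41% of all tested symbols, and 98 were not called. Of the tested Slc genes, 3 passed the filter through 1 group alone: Slc37a4 and Slc30a3 through cKO, and Slc6a11 through WT. With at least 1 FPKM required in all 6 libraries, 25 Slc genes rose (21.7%, against 9.79% of all symbols). Another 3 fell there (2.61%, against 9.67%). No substrate class or gene list was tested as a set. The median log2 fold change (cKO over WT) was 0.12 over the tested Slc genes and -0.01 over all tested symbols. The groups did not overlap upward, with all 3 cKO libraries above all 3 WT libraries, for 43 Slc genes (32.8%), against 19.5% of all tested symbols. They did not overlap downward for 11 (8.4%), against 19.6%. Most changes were small: among the genes that rose, the ratio of mean FPKM ran from 1.26 to 4.87 with a median of 1.6, and 2 genes, Slc1a6 and Slc4a11, passed a log2 fold change of 1. Bulk RNA cannot tell fewer cells of a type from less RNA per cell.

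**Figure D1:**
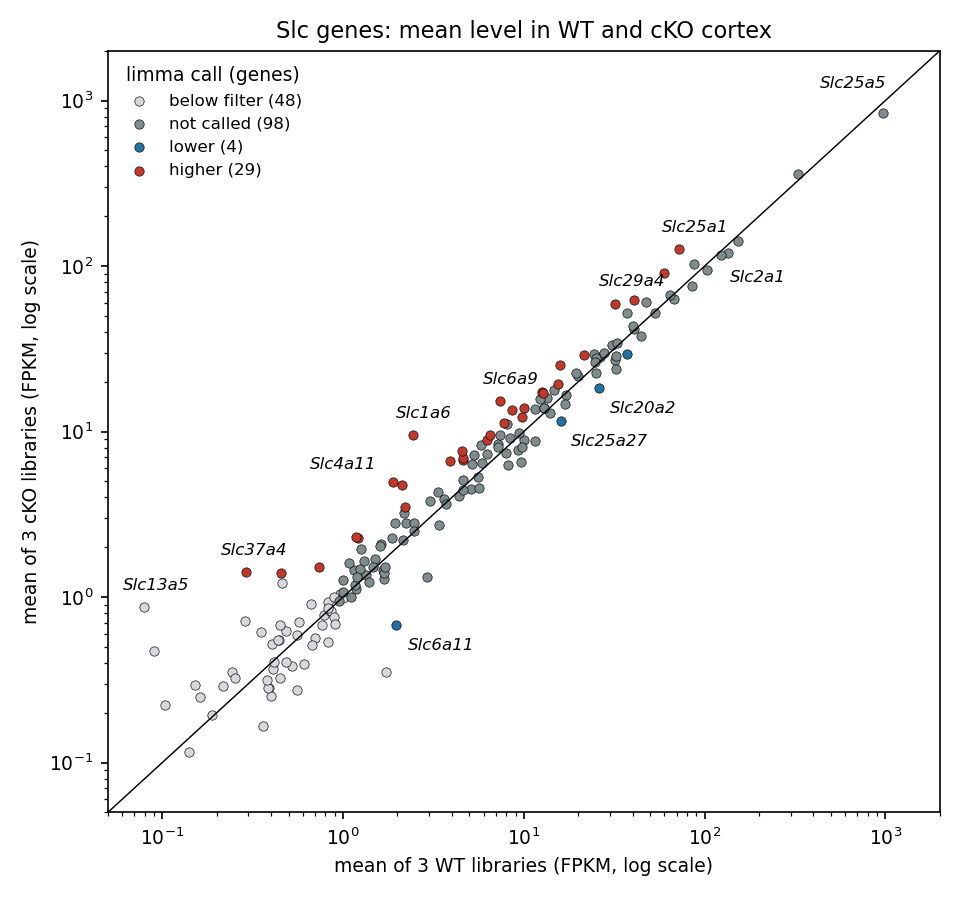
Mean level of the 179 Slc genes in 3 WT libraries (x axis) and 3 cKO libraries (y axis), in FPKM on log scales, with the line of equal levels; colours give the limma call. The 29 genes that rose lie above the line at levels from under 1 to over 100 FPKM, and the most abundant carrier, Slc25a5, was not called.

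The calls depended on which libraries entered the fit. HM-13 had the lowest of the 3 cKO values for 20 of the 29 genes that rose (69.0%), and for 637 of the 900 symbols of the whole table that rose (70.8%). Without HM-13, 28 Slc genes rose and 6 fell. Without HM-16, 8 rose and 2 fell, and without HM-5, 9 rose and 1 fell. Leaving out a WT library gave 20 and 1 (without HC-1), 17 and 3 (HC-8), and 14 and 3 (HC-10). In each of these fits the share of Slc genes that rose was above that of all symbols, for example 6.25% against 3.11% without HM-16. With levels scaled to library totals, in which Rn45s counts, 6 Slc genes rose (4.51%, against 3.23% of all symbols) and 2 fell (1.5%, against 2.09%). Upward calls then made up 75.0% of the Slc calls, against 87.9% before. Over all symbols, 301 of 496 calls were then upward, against 900 of 1686 before. The 7 genes called in all 6 fits that leave out 1 library were Slc1a6, Slc4a11, Slc6a9, Slc29a4, Slc25a1, Slc35f5 and Slc25a23, all of which rose. Just inside the threshold were Slc9a3r1 (adjusted p = 0.0435), Slc30a1 (0.0452), Slc25a10 (0.0469) and Slc25a16 (0.0491), and just outside it Slc27a4 (0.0549), Slc25a30 (0.0583), Slc12a9 (0.0616) and Slc2a10 (0.0761).

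**Figure D2:**
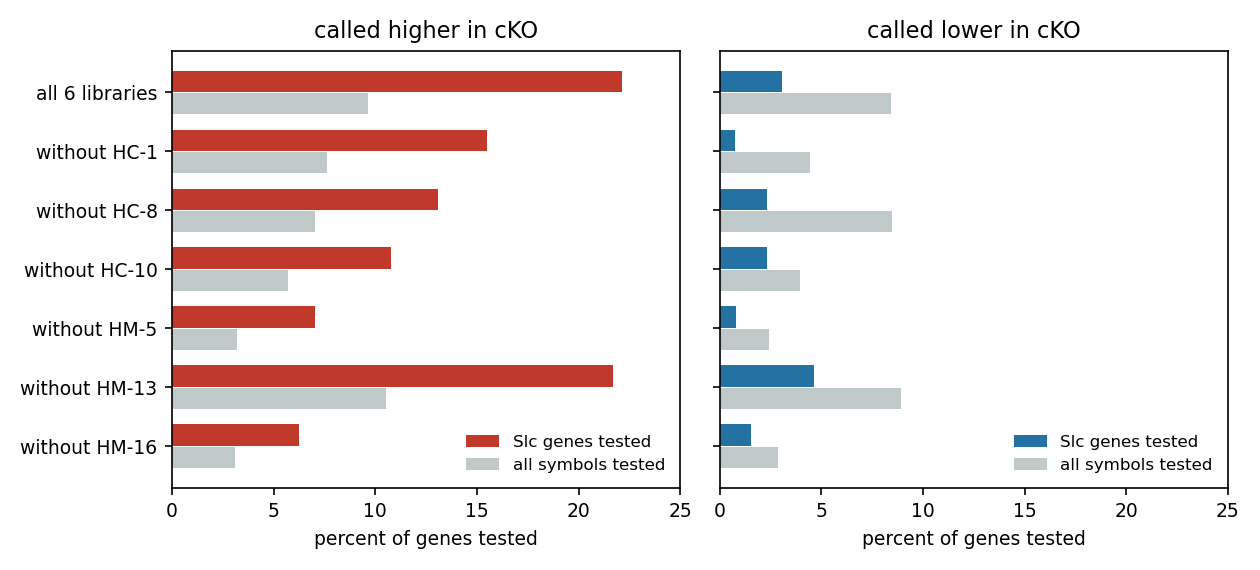
Percent of tested genes called higher (left) and lower (right) in cKO, for Slc genes and for all symbols, with all 6 libraries and with each library left out. The Slc bar is the longer one in every row on the left and the shorter one in every row on the right.

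Carriers that clear glutamate, glycine and GABA from around cells held the largest change upward among the Slc genes called, on the scale of log2(FPKM + 1). Of 11 transmitter carriers, 8 were tested, with a median log2 fold change of 0.02. Of the 8, 2 rose and 1 fell, against 9.63% and 8.41% of all tested symbols. Slc1a6 encodes EAAT4, a glutamate carrier known from Purkinje cells of the cerebellum. It had 2.51, 2.44 and 2.34 FPKM in WT (in the order HC-1, HC-8, HC-10 throughout) and 11.2, 8.0 and 9.53 in cKO (in the order HM-5, HM-13, HM-16). The lowest cKO library was thus above every WT library, and the mean rose 3.94-fold (log2 fold change 1.61 ± 0.13 SE, adjusted p = 0.00102). Slc6a9, the glycine carrier GlyT1, had 8.53, 7.60 and 5.91 FPKM in WT and 15.5, 14.6 and 16.1 in cKO. It rose 2.09-fold (log2 fold change 0.98 ± 0.13 SE, adjusted p = 0.0044). Slc6a11, the GABA carrier GAT3, had 1.88, 1.81 and 2.17 FPKM in WT and 0.631, 0.914 and 0.490 in cKO, and fell to 34.7% of WT (adjusted p = 0.00745). It passed the filter on low values through the WT libraries alone, so leaving out any of these removed it from the test.

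The remaining carriers of the transmitter class were not called. Slc29a4, a carrier of monoamines that rose, was counted in another class and is described below. Slc17a6 encodes VGLUT2, which loads glutamate into the vesicles of early cortical neurons. It had 30.6, 31.2 and 35.0 FPKM in WT and 19.7, 32.7 and 18.8 in cKO, so that HM-13 lay within the WT range and the other cKO libraries below it (log2 fold change -0.47, adjusted p = 0.13). Without HM-13 it fell (log2 fold change -0.71, adjusted p = 0.00474). The summed level of 11 neuronal marker genes ran from 1262 to 1650 FPKM in WT and from 917 to 1343 in cKO, with HM-13 the highest cKO library. None of the 10 neuronal markers tested was called by limma, while 4 had an unadjusted p under 0.05 and voom called 2. All 10 had negative log2 fold changes, as did 4788 of all 9346 tested symbols. The part of the neuronal markers in the Slc17a6 values was not tested. Slc1a3, the glutamate carrier of radial glia, was below the filter, but its row is a retained-intron transcript (0.339 to 0.935 FPKM) and does not give the level of the coding RNA. No enzyme that makes or breaks down transmitters was called by limma or voom, of 8 tested, and 2 had an unadjusted p under 0.05.

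Members of the mitochondrial Slc25 family, which carry metabolites across the inner membrane, included the most abundant Slc gene and 2 of the 7 genes called in every fit that leaves out a library. Of 33 members 27 were tested, with a median log2 fold change of 0.08. Of the 27, 5 rose and 1 fell, against 9.63% and 8.41% of all tested symbols. Slc25a1 exports citrate, from which cytosolic acetyl-CoA is made. It had 72.5, 68.5 and 74.3 FPKM in WT and 135, 108 and 139 in cKO, with no overlap, and rose 1.77-fold (log2 fold change 0.81 ± 0.10 SE, adjusted p = 0.00373). Slc25a23, a calcium-regulated carrier of ATP-Mg and phosphate, had 56.9, 60.3 and 61.6 FPKM in WT and 96.2, 78.6 and 98.7 in cKO, and rose 1.53-fold (adjusted p = 0.00712). Slc25a24, a carrier of the same kind, was not called, with 13.4 to 14.4 FPKM in WT and 12 to 13.9 in cKO. Slc25a29, a carrier of basic amino acids, rose 1.45-fold (adjusted p = 0.0299). Its call did not hold without HC-1, HC-8, HM-5 or HM-16 (adjusted p up to 0.115). Slc25a10, the dicarboxylate carrier, rose 1.35-fold and Slc25a16 rose 1.26-fold, both close to the threshold and both called in only 1 of the 6 fits that leave out a library, the one without HM-13.

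Slc25a27, the uncoupling protein UCP4 of neurons, fell from 15.3, 16.3 and 16.4 FPKM to 10.6, 13.8 and 10.4, or 72.6% of WT (adjusted p = 0.0379). HM-13 was again the cKO library nearest to WT, and the call held in only 1 of the 6 fits that leave out a library (adjusted p up to 0.14). Slc25a5, which exchanges ADP for ATP, was the most abundant Slc gene, with 969, 854 and 1079 FPKM in WT and 776, 968 and 794 in cKO. The groups overlapped and it was not called (95% interval of the log2 fold change -0.47 to 0.08). Its close paralog Slc25a4 had 154 ± 10.4 (SD, n = 3) and 142 ± 7.17 FPKM and was not called either. How reads that map to several places were counted is not given in the sources used here, so reads may be shared between such copies. The summed FPKM of the family was nearly level, 2135 ± 152 in WT and 2137 ± 79.8 in cKO. None of 10 tested genes for other carriers of the mitochondrial membranes was called by limma or voom, or had an unadjusted p under 0.05.

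The starts of Slc1a6 and Slc25a1 are shown because these were the strongest calls among the plasma membrane and the mitochondrial carriers. Both windows run from 250 bases before to 50 bases after a RefSeq transcript start on GRCm38.p6, 5' to 3', in the direction of transcription. Capitals mark GC boxes, GGGCGG on either strand, the letters that transcription factors of the Sp family are known to bind. The Slc1a6 window (chr10:78780246-78780545, plus strand) holds 6, of which a neighbouring pair overlaps, and the Slc25a1 window (chr16:17928170-17928469, minus strand) holds 4.
Slc1a6: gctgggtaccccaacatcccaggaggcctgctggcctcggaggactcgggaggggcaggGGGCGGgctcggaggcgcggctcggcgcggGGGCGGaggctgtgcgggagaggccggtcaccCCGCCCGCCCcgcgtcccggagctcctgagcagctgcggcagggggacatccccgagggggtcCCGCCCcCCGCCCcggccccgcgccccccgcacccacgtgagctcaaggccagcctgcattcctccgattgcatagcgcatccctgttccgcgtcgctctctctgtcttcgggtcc
Slc25a1: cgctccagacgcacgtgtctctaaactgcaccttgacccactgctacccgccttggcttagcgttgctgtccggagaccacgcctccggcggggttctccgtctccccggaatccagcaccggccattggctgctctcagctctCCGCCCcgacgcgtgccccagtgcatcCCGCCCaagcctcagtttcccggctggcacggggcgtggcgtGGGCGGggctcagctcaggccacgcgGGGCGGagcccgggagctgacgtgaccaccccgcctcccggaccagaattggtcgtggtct
A GC box occurred in 35.6% of all 32817 promoter windows of the same length in the RefSeq table, and in 75.0% of the 128 Slc windows whose start lay within 500 bases of the start of the row's transcript. It occurred in 76.8% of the 95 of these windows whose gene was tested, and in 19 of the 22 (86.4%) whose gene rose. The background of all windows was not limited to genes of the expression table or to matched starts, as the Slc windows were. No share for other expressed genes was computed, so whether the higher share is particular to Slc genes was not tested. A match is a description of the letters and not a bound site.

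Among amino acid carriers, 16 of 23 members were tested, with a median log2 fold change of 0.20. Of the 16, 4 rose and none fell, against 9.63% and 8.41% of all tested symbols. Among all Slc genes called, 29 rose and 4 fell. Slc7a10, the exchanger Asc-1 of small neutral amino acids, had 2.92, 1.69 and 1.78 FPKM in WT and 4.13, 4.41 and 5.79 in cKO. The groups did not overlap and the mean rose 2.24-fold (log2 fold change 0.89 ± 0.18 SE, adjusted p = 0.0171). Slc1a5, the glutamine exchanger ASCT2, had 43.0, 40.9 and 38.6 FPKM in WT and 65.0, 50.8 and 72.1 in cKO, and rose 1.53-fold (adjusted p = 0.0178). Both calls were lost without HM-16, HM-5 or HC-10 (adjusted p up to 0.0643 and 0.0764). At the lysosome, the proton-coupled carrier Slc36a1 rose 1.47-fold (adjusted p = 0.0336) and Slc38a9, the arginine sensor that signals to mTORC1, rose 1.42-fold (adjusted p = 0.0346). Slc38a9 was not called in any of the 6 fits that leave out a library (adjusted p up to 0.11), and Slc36a1 was called only without HC-1 or HM-13.

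The large neutral amino acid exchanger LAT1 is built from Slc7a5 and the heavy chain Slc3a2. Slc7a5 had 42.5, 34.6 and 34.4 FPKM in WT and 54.6, 38.3 and 62.8 in cKO. HM-13 lay within the WT range, and the gene was not called (log2 fold change 0.45, adjusted p = 0.116). Without HM-13 it rose (log2 fold change 0.65, adjusted p = 0.0146). The Slc3a2 row used here held only about 1 FPKM in every library (0.976 to 1.19). Slc7a11, which brings in cystine, had 3.22, 3.84 and 1.67 FPKM in WT and 1.11, 1.87 and 0.997 in cKO, and was not called (adjusted p = 0.0789). It fell without HC-10 (adjusted p = 0.0273), with library totals (0.00776) and with voom (0.0494). Slc38a2, the most abundant carrier of the class, had 130 to 137 FPKM in WT and 113 to 123 in cKO and was not called (adjusted p = 0.0801). Of 11 genes that answer to amino acid shortage, all tested, 3 rose and 1 fell, against 9.63% and 8.41% of all tested symbols. Sesn2, a leucine sensor, rose 2.65-fold, Eif4ebp1, a target of mTORC1, rose 1.58-fold, and Trib3 rose 2.02-fold, the last a call that held only without HC-1 (adjusted p up to 0.0685). Asns, which makes asparagine, fell to 70.2% of WT (adjusted p = 0.0088).

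Of 12 sugar carriers 8 were tested and 2 rose, against 9.63% of all tested symbols. Of the 2, Slc37a4 entered the test only through the cKO libraries. Slc37a4 moves glucose 6-phosphate into the endoplasmic reticulum. It had 0.227, 0.368 and 0.280 FPKM in WT, from 6 to 11 reads, and 1.58, 1.19 and 1.49 in cKO, from 24 to 42 reads. The mean rose 4.87-fold (adjusted p = 0.00397). Leaving out any cKO library removed it from the test. Slc2a5, the fructose carrier GLUT5, which in brain is known from microglia, had 1.09, 1.52 and 1.03 FPKM in WT and 2.20, 2.44 and 2.17 in cKO (1.87-fold, adjusted p = 0.021). The call was lost without HM-16, HM-5, HC-10 or HC-1. The summed level of 6 microglial marker genes was 51.1 to 62.6 FPKM in WT and 69.1 to 81.0 in cKO. Of these markers C1qb (1.41-fold) and Tyrobp (1.67-fold) rose, C1qb not without HM-16, HM-5 or HC-10 and Tyrobp not without HM-16. All 6 had positive log2 fold changes, as did 4558 of all 9346 tested symbols. The part of the microglial markers in the Slc2a5 values was not tested.

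Slc2a1 (GLUT1), which brings glucose into the brain through endothelium and is made by radial glia as well, had 136, 125 and 109 FPKM in WT and 112, 110 and 127 in cKO. The ranges overlapped, and it was not called (95% interval of the log2 fold change -0.30 to 0.14). None of 5 tested endothelial markers was called by limma or voom, or had an unadjusted p under 0.05, though all 5 had positive log2 fold changes. Slc2a3 (GLUT3), the carrier of neurons, was below the filter, and its row is a retained-intron transcript. Of 12 tested genes of glucose use, 2 rose and 2 fell, against 9.63% and 8.41% of all tested symbols. The glycolytic enzymes Pgk1 and Tpi1 fell to 70.2% and 75.4% of WT. Arrdc4 rose 1.36-fold, a call that held only without HC-8 among the fits that leave out a library (adjusted p up to 0.0919). Pfkp had 0.220, 0.409 and 0.372 FPKM in WT and 1.64, 1.41 and 1.36 in cKO (4.41-fold, adjusted p = 0.00397), and it passed the filter through the cKO libraries alone.

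Lactate and other carboxylates had no carrier called by limma or voom, or with an unadjusted p under 0.05, among 5 tested (of 7, median log2 fold change -0.16). Slc16a1 (MCT1), the lactate carrier, had 38.5 to 43.5 FPKM in WT and 38.1 to 44.2 in cKO (95% interval of the log2 fold change -0.15 to 0.23). Slc16a13 had 8.87 to 11.2 FPKM in WT and 8.51 to 9.16 in cKO and was not called (adjusted p = 0.33). Embigin, encoded by Emb, escorts lactate carriers to the membrane. It had 23.0, 29.6 and 17.04 FPKM in WT and 7.82, 9.03 and 11.1 in cKO and fell to 40.2% of WT (adjusted p = 0.00839), in all 6 fits that leave out a library. The row of Bsg, the other such escort, held only 1.78 to 2.89 FPKM in WT and 1.46 to 2.32 in cKO, from 22 to 54 reads per library, and was not called. Slc13a5, the citrate carrier of the plasma membrane, was below the filter: it had 0.0544, 0.096 and 0.0861 FPKM in WT, from 2 to 4 reads, and 0.784, 0.959 and 0.870 in cKO, from 27 to 30 reads. In the fit with no filter, 30 of all 179 Slc genes rose (16.8%, against 7.61% of all symbols) and 4 fell (2.23%, against 6.08%). Slc13a5 (adjusted p = 0.0018), Slc41a3, Slc2a8 and Slc25a42 were the 4 genes below the filter that were called there, all upward, and they are named because of these values.

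**Figure D3:**
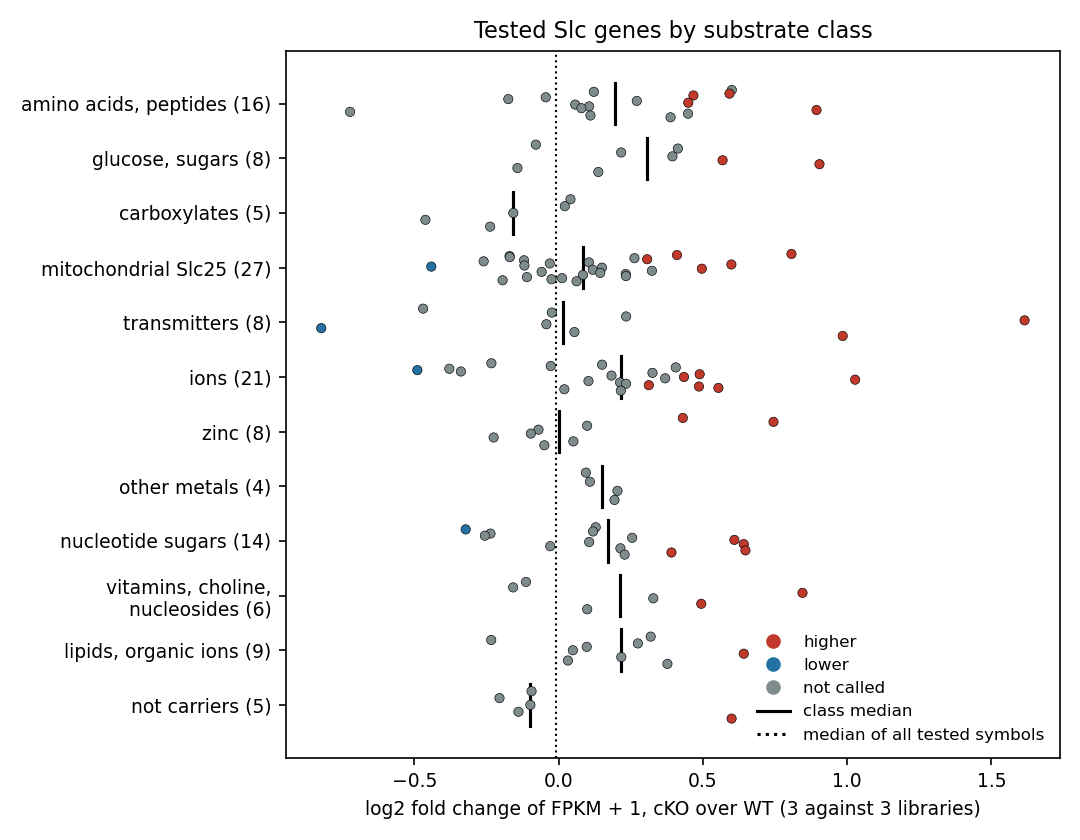
Log2 fold change of FPKM + 1 (cKO over WT) of the 131 tested Slc genes, by substrate class with the number tested; each point is a gene, bars are class medians and the dotted line is the median of all tested symbols, -0.01. Carboxylate carriers and the 5 genes that are not carriers have medians to the left of the line, and the single points far right and far left are Slc1a6 and Slc6a11.

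Of 29 carriers of inorganic ions 21 were tested, with a median log2 fold change of 0.22. Of the 21, 6 rose and 1 fell, against 9.63% and 8.41% of all tested symbols. Slc4a11, a member of the bicarbonate carrier family that conducts protons, had 2.11, 1.59 and 1.96 FPKM in WT and 6.27, 3.74 and 4.89 in cKO. It rose 2.63-fold with no overlap (log2 fold change 1.03 ± 0.17 SE, adjusted p = 0.0088). Sodium-proton exchangers set the pH of the cytosol and of endosomes. All 6 family members in the table were tested. All had positive log2 fold changes, as did 88 of the 131 tested Slc genes and 4558 of all 9346 tested symbols. Of the family, 3 rose, against 9.63% of all tested symbols. Among the 3, Slc9a7 (NHE7 of the Golgi network) rose 2.08-fold from a mean of 0.733 FPKM (adjusted p = 0.0299), and Slc9a5 rose 1.26-fold (adjusted p = 0.0419). The Slc9a7 call held only without HC-10, and the Slc9a5 call held only without HM-13. The sulfate carrier Slc26a2 (1.5-fold, adjusted p = 0.0316) and the magnesium carrier Slc41a1 (1.38-fold, adjusted p = 0.0424) also rose, with adjusted p up to 0.124 and 0.145 when 1 library was left out.

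Slc20a2 (PiT2), a sodium-phosphate carrier, had 26.95, 26.7 and 24.5 FPKM in WT and 18.01, 16.6 and 20.4 in cKO. It fell to 70.3% of WT (adjusted p = 0.0133), and the call was lost without HM-5 (adjusted p = 0.0621). Of the 4 Slc genes that fell, it was the only one without HM-13 as its highest cKO library. Slc20a1 (PiT1), the other phosphate carrier, had 12.4, 11.7 and 10.7 FPKM in WT and 8.98, 10.2 and 7.14 in cKO. The groups did not overlap but it was not called (adjusted p = 0.0847). Its row is a processed transcript and does not give the level of the coding RNA. Cation-chloride cotransporters set the chloride level that decides whether GABA excites a neuron. Of 5 members 4 were tested and none was called by limma, while 2 had an unadjusted p under 0.05 and voom called 1, Slc12a9. Slc12a2 (NKCC1), the chloride loader, had 30.5 to 33.6 FPKM in WT and 24.2 to 28.7 in cKO (adjusted p = 0.0999). Slc12a5 (KCC2), the chloride extruder of mature neurons, was below the filter in both groups, with means of 0.189 and 0.195 FPKM. Slc4a1, the anion exchanger of red blood cells, was the most abundant ion carrier (34.3 to 54.7 FPKM in WT and 50.4 to 68.4 in cKO) and was not called (adjusted p = 0.216). The 6 tested erythroid markers were not called by limma or voom, nor had any an unadjusted p under 0.05, though all 6 had positive log2 fold changes. Of 8 tested ATP-driven pumps, which build the gradients that these carriers use, 2 rose, Atp1b2 and Atp2b1, against 9.63% of all tested symbols. Atp1b2, a beta subunit of the sodium pump, rose 1.89-fold (adjusted p = 0.00499). Its row is a processed transcript and does not give the level of the coding RNA. Atp2b1, a calcium pump of the plasma membrane, rose 1.26-fold (adjusted p = 0.0195), a call lost without HC-1, HC-10, HM-5 or HM-16 (adjusted p up to 0.0896).

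**Figure D4:**
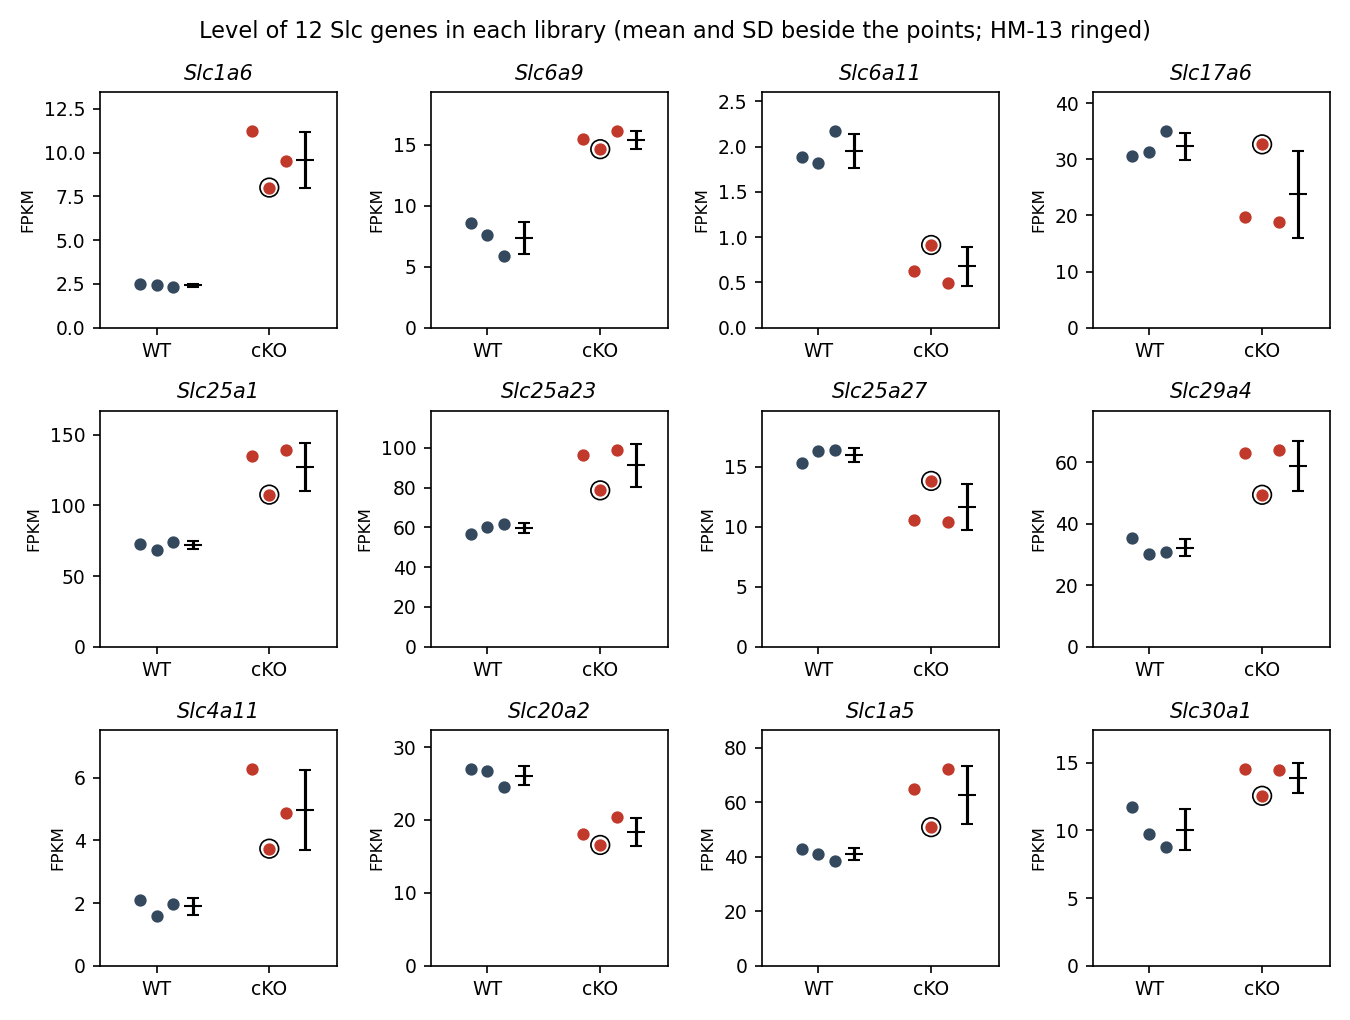
FPKM of 12 Slc genes in each library (points, WT left and cKO right; HM-13 ringed), with mean and SD of 3 libraries beside the points. The groups overlap only for Slc17a6, where HM-13 sits among the WT values at 32.7 FPKM.

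Zinc carriers fall into 2 families. The ZnT (Slc30) family moves zinc out of the cytosol. Of its 4 tested members 2 rose, against 9.63% of all tested symbols, and Slc30a3 entered the test only through the cKO libraries. Slc30a1, the exporter of the plasma membrane, had 11.7, 9.71 and 8.76 FPKM in WT and 14.5, 12.6 and 14.5 in cKO, and rose 1.38-fold (log2 fold change 0.43 ± 0.12 SE, adjusted p = 0.0452). The call was lost without HM-16, HM-5, HC-10 or HC-8 (adjusted p up to 0.154), with quantile normalization (0.0698) and with no filter on low values (0.051), so that in the fit with no filter 1 of the 4 rose. Slc30a3, which loads zinc into synaptic vesicles, had 0.133, 0.706 and 0.516 FPKM in WT and 1.503, 1.28 and 1.42 in cKO, and rose 3.1-fold (adjusted p = 0.0207). It rests on 3 to 18 reads per WT library. The ZIP (Slc39) family brings zinc into the cytosol, and none of its 4 tested members, of 10, was called by limma or voom, or had an unadjusted p under 0.05. Slc39a6, the most abundant, had 61.6 to 66.5 FPKM in WT and 62.5 to 69.1 in cKO. Whether the families differ from each other was not tested.

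Slc30a1 is known to be switched on by the zinc-sensing factor MTF1, as are metallothioneins, which bind zinc. Mt2 had 31.98, 41.9 and 30.4 FPKM in WT and 121, 99.0 and 126 in cKO, and rose 3.32-fold (adjusted p = 0.00102), in all 6 fits that leave out a library. Mt3, the metallothionein of brain, was not called (adjusted p = 0.38). The part of MTF1 or zinc in the Slc30a1 and Mt2 values was not tested. The starts of Slc30a1 and Mt2 are shown because both genes rose and both are textbook metal-responsive genes. Capitals mark the core of the metal response element, TGCACNC or TGCGCNC on either strand, in windows of the same kind as above. The Slc30a1 window (chr1:191906531-191906830, plus strand) holds 2 cores and the Mt2 window (chr8:94172368-94172667, plus strand) holds 4.
Slc30a1: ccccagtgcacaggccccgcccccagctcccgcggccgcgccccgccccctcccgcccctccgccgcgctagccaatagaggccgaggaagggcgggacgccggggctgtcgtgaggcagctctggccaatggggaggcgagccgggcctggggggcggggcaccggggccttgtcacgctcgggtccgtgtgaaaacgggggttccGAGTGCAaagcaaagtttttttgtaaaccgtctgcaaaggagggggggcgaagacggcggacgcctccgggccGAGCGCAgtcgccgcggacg
Mt2: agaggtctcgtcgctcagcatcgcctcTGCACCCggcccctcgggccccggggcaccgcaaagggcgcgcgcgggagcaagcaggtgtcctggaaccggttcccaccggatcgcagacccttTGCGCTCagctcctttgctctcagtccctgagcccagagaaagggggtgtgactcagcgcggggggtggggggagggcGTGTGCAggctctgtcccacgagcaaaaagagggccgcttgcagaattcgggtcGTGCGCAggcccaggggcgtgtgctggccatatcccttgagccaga
The core occurred in 25.7% of all promoter windows, in 39.1% of the 128 Slc windows, in 40% of those whose gene was tested and in 11 of the 22 (50%) whose gene rose. An E-box, CACGTG, was present in 7.15% of all windows, 13.3% of the Slc windows and 3 of the 22. An amino acid response element, TGATGNAA on either strand, was present in 3.97% of all windows, in 4 of the 128 Slc windows and in none of the 22. As for the GC boxes, the background of all windows was not limited to genes of the expression table.

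Nucleotide sugar carriers bring the building blocks of glycans into the Golgi apparatus and the endoplasmic reticulum. Of 20 members 14 were tested, with a median log2 fold change of 0.17. Of the 14, 4 rose and 1 fell, against 9.63% and 8.41% of all tested symbols. Slc35f5 had 16.5, 16.8 and 13.99 FPKM in WT and 26.6, 25.1 and 23.9 in cKO. It rose 1.6-fold with no overlap (log2 fold change 0.65 ± 0.09 SE, adjusted p = 0.00508), and unlike most genes that rose it was lowest in HM-16. Slc35e4 had 5.14, 4.16 and 4.33 FPKM in WT and 7.92, 7.21 and 7.75 in cKO (1.68-fold, adjusted p = 0.00927). Both belong to subfamilies of poorly known substrate. Slc35c1, the GDP-fucose carrier, had 1.33, 1.175 and 1.02 FPKM in WT and 2.20, 2.29 and 2.45 in cKO (1.97-fold, adjusted p = 0.0118), and Slc35f6 rose 1.34-fold (adjusted p = 0.0216). Slc35a1, which carries CMP-sialic acid, fell from 39.9, 36.4 and 35.5 FPKM to 28.6, 31.4 and 28.9, or 79.4% of WT (adjusted p = 0.0237). Without 1 library the highest adjusted p was 0.0524 for Slc35e4 (without HM-5), 0.0532 for Slc35c1 (without HM-16), 0.0842 for Slc35f6 (lost without HC-1, HC-8, HC-10 or HM-16) and 0.101 for Slc35a1 (lost without HC-1, HM-5 or HM-16). The most abundant member, Slc35f1, had 49.9 to 54.8 FPKM in WT and 50.7 to 52.3 in cKO (95% interval of the log2 fold change -0.17 to 0.11).

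In the class of vitamin, choline and nucleoside carriers, formed by family number and known substrate, 2 of 6 tested members rose and none fell (of 8 in all, median log2 fold change 0.21). Over all tested symbols 9.63% rose and 8.41% fell. Slc29a4 (PMAT), counted here although it carries monoamines and other organic cations, had 35.3, 30.3 and 30.7 FPKM in WT and 62.97, 49.4 and 63.9 in cKO. It rose 1.83-fold with no overlap (log2 fold change 0.85 ± 0.11 SE, adjusted p = 0.00455). The summed FPKM of the class was 58.9 ± 3.65 in WT and 89.4 ± 9.53 in cKO, and Slc29a4 made up most of the gain. Slc44a5, a choline carrier relative, rose 1.6-fold (adjusted p = 0.0275). Its row is a retained-intron transcript, and the call held only without HC-8. Of 9 tested carriers of lipids, hormones and organic ions, 1 rose, against 9.63% of all tested symbols. It was Slc27a2, a fatty acid carrier that also activates very long chain fatty acids. Slc27a2 had 4.83, 3.96 and 2.98 FPKM in WT and 7.69, 6.21 and 5.98 in cKO (1.69-fold, adjusted p = 0.0356). This call held only without HC-1 (adjusted p up to 0.133).

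Carriers of iron, copper and haem gave no call by limma or voom, and no unadjusted p under 0.05, among 4 tested (of 5, median log2 fold change 0.15). The iron exporter Slc40a1 had 4.81 to 7.60 FPKM in WT and 7.22 to 7.38 in cKO, and the iron importer Slc11a2 had 8.27 to 8.61 and 8.02 to 9.996. Of the 5 genes named Slc that are not carriers, Slc9a3r1, which encodes the scaffold NHERF1 that anchors transporters below the membrane, had 10.04, 8.78 and 6.89 FPKM in WT and 13.7, 10.99 and 15.8 in cKO (1.58-fold, adjusted p = 0.0435). It was called without HC-1 or HM-13 and lost without each of the other libraries. The most abundant of these 5, Slc2a4rg-ps, was not called (adjusted p = 0.239). Of 7 tested partner genes that escort or regulate carriers, 1 fell and 3 rose, against 8.41% and 9.63% of all tested symbols. Emb, described with the lactate carriers, fell. Those that rose were Slc9a3r1 again, the ubiquitin ligase Nedd4l (1.85-fold, adjusted p = 0.0205) and Ostm1, the subunit of a lysosomal chloride exchanger (1.34-fold, adjusted p = 0.0241). Nedd4l passed the filter through the cKO libraries alone and was not called without HC-10 (adjusted p = 0.0668). Ostm1 held only without HC-10 or HM-13. Of 17 tested ABC transporters, the ATP-driven counterparts of solute carriers, 2 rose and 2 fell, against 9.63% and 8.41% of all tested symbols. Abcb6 (1.51-fold) and Abcb10 (1.27-fold) rose. Abce1, a ribosome recycling factor of this family that carries nothing across membranes, and Abcb8 fell to 80.7% and 60.6% of WT. Of the 6 fits that leave out a library, 4 kept Abcb6, 2 kept Abcb10, 2 kept Abce1 and 1 kept Abcb8 (adjusted p up to 0.0541, 0.0871, 0.0804 and 0.101). The calls were lost without HM-5 or HM-16 (all but Abcb8, which held only without HM-16), and also without HC-8 or HC-10 for Abcb10 and without HC-1 or HC-10 for Abce1.

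The authors' deposited table gives an FDR for 133 of the Slc genes. By that FDR at the same threshold, 30 were higher and 5 lower in cKO. All 31 genes called here that have such an FDR were under the threshold there with the same sign. Slc37a4 and Slc30a3 have none, and 4 genes under the threshold in the authors' deposited table (Slc7a5, Slc16a14, Slc2a13 and Slc12a9) were not called here. All 33 genes called here were also called by voom on the recovered reads.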

How the data were processed

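RNA was measured in 3 WT and 3 cKO libraries. Per the submitters' processing notes the tools were bcl2fastq 1.8.4, STAR 2.5.4b (build mm10), featureCounts 1.6.1, DESeq2 1.22.1 and R 3.4.1. The counting annotation, strandedness and treatment of multiply mapped reads were not given in the sources used here, so reads of a gene and its antisense partner cannot be told apart. Per the file headers, the deposited table holds FPKM for each library, a mean normalized count per row (taken here as a signal), and from the authors a p-value, an FDR and a log2 fold change. HC was read as WT and HM as cKO from the letters of the column names.

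The deposited FPKM behave as reads divided by size factors of 0.804 (HM-13) to 1.19 (HC-8) and by length: FPKM times the row's mean normalized count over its mean FPKM, divided by a step fitted per library, came out whole within 0.001 for 100% of values. These recovered reads total 9712556 (HM-16) to 11922665 (HC-8) and entered limma's voom as an alternative, which called 32 Slc genes higher and 5 lower.

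Of 12019 symbols, 1967 have several rows, as do 26 Slc genes. Levels are those of the row used. By GENCODE M21, 156 Slc rows are protein-coding transcripts, 17 retained introns, 4 processed transcripts and 1 a polymorphic pseudogene, and 1 row has no transcript found there. Symbols that reached 1 FPKM in at least 3 libraries entered limma 3.58.1 as log2(FPKM + 1) (intensity trend, group as the only term) in R 4.3.3, called at a Benjamini-Hochberg adjusted p under 0.05, and the fit was tested on simulated data. The pseudocount of 1 lowers log2 fold changes of weakly expressed genes; ratios are of mean FPKM.

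The members, the substrate classes and the lists of related and cell type genes were chosen with earlier results of these data known. Named genes are Hdac1 and Hdac2, up to 4 called members of smallest p per class or list (or the 2 most abundant tested members where none was called), the 10 largest called changes with no overlap, the most abundant member of each class and fixed partner sets. Further genes (among them Slc20a1, Slc25a24, Slc25a10, Slc25a16, Slc9a5, Slc26a2, Slc41a1, Slc35a1 and those called without a filter) were named after their values were seen. Some named members are not reported here. Alternatives were other pseudocounts (0.1 and 5), filters and scalings, summed rows, voom and each library left out. Of 179 Slc symbols, 140 were in the RefSeq promoter table.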

Additional observations from a re-analysis of the deposited data

How the results depend on the processing

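With 3 libraries a group, single calls are fragile: among the 641 refits of 47 named genes, 548 kept direction and side of the threshold, 85 lost the call, 5 gained it and 3 turned sign, all 3 of them genes that were not called. These were Slc16a1 with library totals (log2 fold change -0.052457) and with 1 library left out (-0.000195 without HM-16, up to 0.1055), and Slc39a6 with library totals (-0.043723). The number of Slc genes that rose, 29, ranged from 8 to 28 with 1 library left out and was 6 with library totals; the number that fell, 4, ranged from 1 to 6 and was 2. Library totals move the median of all symbols to -0.09 and that of the Slc genes to 0.04 (log2), and 7 of the 31 called genes tested under it (Slc7a10, Slc4a11, Slc25a1, Slc1a6, Slc6a9, Slc6a11 and Slc29a4) stayed called, while Slc37a4 and Slc30a3 were not tested. Under pseudocounts of 0.1 and 5, both other filters, quantile normalization, voom and summed rows, 25 to 32 rose and 3 to 5 fell. Quantile normalization ended the calls of Slc38a9, Slc41a1, Slc25a29, Slc25a16, Slc9a3r1 and Slc30a1 (adjusted p 0.0516 to 0.0899), and the fit with no filter those of Slc25a10, Slc25a16 and Slc30a1 (0.051 to 0.0589). No paired analysis was possible because the column names carry no replicate number. Genes near 0.1 FPKM rest on a few reads, so small differences there are not detectable at this depth.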

Other observations

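A WT library stood apart in genes of the cortical hem and choroid plexus, the medial edge of the cortex. Ttr, which encodes the thyroid hormone carrier protein of the choroid plexus, had 118 FPKM in HC-1, 145 in HC-8 and 0.0769 in HC-10. The cKO libraries had 27.1 to 68.4. The summed level of 8 such genes ran from 49.3 (HC-10) to 445 FPKM in WT and from 213 to 265 in cKO. Some Slc genes, picked after their values were seen, were low in the same library. Slc4a5, a sodium-bicarbonate carrier of the choroid plexus, had 0.538, 0.796 and 0.0183 FPKM in WT, lowest in HC-10, and 0.278 to 0.380 in cKO. The zinc carrier Slc39a12 had 0.797, 0.997 and 0.0351 FPKM in the same order, and 0.319 to 0.434 in cKO. Both were below the filter and not tested. Without HC-10, 14 Slc genes rose and 3 fell. Genes of the GABAergic lineage also varied within both groups. The summed level of 4 such genes ran from 5.10 to 53.9 FPKM in WT and from 1.54 to 22.6 in cKO. Dlx2 had 3.74, 38.3 and 26.5 FPKM in WT, lowest in HC-1, and 1.43, 11.8 and 13.1 in cKO, lowest in HM-5. None of the 3 tested was called, and the part of this variation in the carrier values was not tested.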
